A study of Mus musculus with 12 samples.

Results

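The genes described here belong to mitochondrial calcium uptake and the permeability pore in skeletal muscle: Mcu, Micu2, Micu3, Smdt1, Letm1, Vdac1, Vdac2, Vdac3 and Ppif. They were taken from the count table by gene symbol, and all 9 of 9 were found among its 24421 entries and kept among the 13937 genes tested. RNA sequencing covered the tibialis anterior, the muscle along the shin, of 6 wild-type C57Bl/6 mice (WT) and 6 mdx/mTR mice. All 12 were males of 4 months. The mdx allele disrupts Dmd, the dystrophin gene, and mTR stands for the mouse telomerase RNA, the product of Terc. The labels name no further allele, treatment or litter. Because no group carried only one of the mutations, their contributions cannot be told apart.

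Calcium enters the mitochondrial matrix in 2 steps. It first crosses the outer membrane through the voltage-dependent anion channels (Vdac genes) and then the inner membrane through the uniporter, whose pore is the Mcu protein. The small protein EMRE, encoded by Smdt1, is needed for the pore to conduct, and EF-hand proteins such as MICU2 and MICU3 help to set the calcium level at which it opens. LETM1 is an inner membrane protein linked to cation and proton exchange. Cyclophilin D, encoded by Ppif, sensitises the permeability transition pore, a large channel that opens in calcium-loaded mitochondria. Muscle without dystrophin is known for calcium overload, and cyclophilin D has been studied in it for that reason.

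Dmd checked the labels: it had 228 to 244 CPM (reads counted per 1e6 of a library, after adjusting its size by the trimmed mean of M-values, TMM) in WT and 35.2 to 56.4 CPM in mdx/mTR, with no overlap. Terc had 2 counts over all 12 libraries and could not check them. Library totals ran from 35136327 to 60330410 counts, and a member had between 689 and 87580 counts in a library. Micu3 had the fewest, 689 to 1360 counts, and among WT mice its counting error was not small beside the spread between mice. The fast fibre markers listed for myofibres were abundant in every library, with a summed level of 146035 to 175081 CPM in WT and 114015 to 157319 CPM in mdx/mTR. Of these 8 markers 1 rose and 2 fell (edgeR adjusted p below 0.05 under TMM), where 25.0% of all tested genes rose and 23.4% fell. The markers of other cell types are set against the same shares. Under TMM 11 of 12 macrophage markers rose, their summed level being 113 to 193 CPM in WT and 312 to 827 CPM in mdx/mTR. Of 9 fibroblast markers 8 rose (1244 to 2309 and 2993 to 6041 CPM). Of 8 satellite cell and myoblast markers 6 rose and 1 fell (59.0 to 77.0 and 129 to 523 CPM), while 5 of 8 endothelial markers (609 to 778 and 475 to 591 CPM) and 4 of 6 Schwann cell and nerve markers (72.1 to 88.4 and 52.0 to 69.0 CPM) fell. With library totals alone (40.2% of all genes higher and 11.2% lower) 3 endothelial and 4 Schwann cell and nerve markers were lower. Scaled on mitochondrial (49.0% and 6.95%) or fast fibre reference genes (32.7% and 8.88%), 3 endothelial and 2 Schwann cell and nerve markers were lower. On mitochondrial genes 1 Schwann cell and nerve marker was higher. Under each of these scalings 11 macrophage, 8 fibroblast and 6 satellite cell markers were higher and none lower. Of 5 adipocyte markers 1 fell under TMM, near the share of all genes (173 to 219 and 139 to 181 CPM). Of the 5 blood markers the entries Hba-a1, Hba-a2, Hbb-bs and Hbb-bt were at 0 in every library and the other did not pass (11.5 to 41.6 and 9.82 to 22.3 CPM). The part of these cells in the results below was not tested, and in bulk muscle fewer cells of a type and less RNA per cell cannot be told apart. The labels do not say how the mice were related, so p-values measure the spread between these 12 samples.

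Of the 9 genes, 2 rose in mdx/mTR (Mcu and Micu2), 6 fell (Micu3, Letm1, Vdac1, Vdac2, Vdac3 and Ppif) and Smdt1 did not pass (edgeR quasi-likelihood test, Benjamini-Hochberg adjusted p below 0.05 over all tested genes). Among all 13937 genes 48.3% were called, 25.0% higher and 23.4% lower. In TMM-scaled CPM all mice of one group lay beyond the other group for 6 of the 9 genes, 2 being higher and 4 lower in mdx/mTR. By the same measure 12.6% of all genes lay apart in the higher and 12.6% in the lower direction. Per library total the groups stayed apart for Mcu, Micu2 and Micu3 but overlapped for Letm1, Vdac1 and Vdac2. The share of all genes apart per library total was not counted. The largest change of a member was 1.43-fold, for Micu2. The median log2 fold change of the 9 was -0.22, against 0.01 over all tested genes. The rises of Mcu and Micu2 passed under all 6 library scalings tried. Of the 6 falls, 4 passed with upper quartile scaling (28.4% of all genes higher and 19.4% lower) and 1 (Micu3) with library totals alone (40.2% and 11.2%). None passed when libraries were set equal on mitochondrial (49.0% and 6.95%) or on fast fibre reference genes (32.7% and 8.88%). These 4 scalings moved log2 fold changes up against TMM, by a median of 0.04, 0.16, 0.23 and 0.16. DESeq2 size factors moved them by -0.006. No scaling that clearly lowered them was tried, so the falls were put to a test but the rises hardly were. The authors' deposited table called the same 8 of 9 in the same directions. It rests on the same 12 libraries, so it is no separate test of these calls or of the scaling. Of its 14028 genes with an adjusted p, the authors' deposited table called 50.1%.

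The start regions of Mcu and Micu2, the 2 members that rose, and of Vdac1, the most abundant member, are shown so that the genes can be located. Each is the 250 bases before the RefSeq start site (GRCm38.p6), 5′ to 3′ on the strand of the gene, and capitals mark matches to the motifs given after them. The windows are chr10:59616693-59616942 for Mcu (minus strand), chr14:57999263-57999512 for Micu2 (minus strand) and chr11:52360601-52360850 for Vdac1 (plus strand).
Mcu: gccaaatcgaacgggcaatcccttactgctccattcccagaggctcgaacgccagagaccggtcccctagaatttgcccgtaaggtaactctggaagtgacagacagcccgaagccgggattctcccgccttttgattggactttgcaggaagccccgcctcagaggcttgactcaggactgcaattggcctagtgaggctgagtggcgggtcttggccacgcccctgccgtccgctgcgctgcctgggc
Micu2: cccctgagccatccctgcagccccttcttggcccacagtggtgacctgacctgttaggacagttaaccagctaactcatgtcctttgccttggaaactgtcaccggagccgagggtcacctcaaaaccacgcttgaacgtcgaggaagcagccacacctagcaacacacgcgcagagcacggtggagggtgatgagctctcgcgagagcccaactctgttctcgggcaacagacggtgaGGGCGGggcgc
Vdac1: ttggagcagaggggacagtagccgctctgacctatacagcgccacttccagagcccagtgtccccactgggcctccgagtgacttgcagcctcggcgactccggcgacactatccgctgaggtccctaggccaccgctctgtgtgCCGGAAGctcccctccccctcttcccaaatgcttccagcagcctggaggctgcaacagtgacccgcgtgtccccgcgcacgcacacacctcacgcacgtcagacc
The 7 motifs were searched on both strands in these windows and in those of all 32851 RefSeq starts of the same table: CCGGAAG (ETS, GABP), the NRF1 palindrome, TNAAGGTCA (ERR), TGACGTCA (the cyclic AMP response element), the E-box CAGCTG, the MEF2 core and the GC box GGGCGG. Mcu held none of these 7 letter patterns. Micu2 held 1 GC box, beginning 11 bases before its start, a pattern present in 32.7% of all windows. Vdac1 held 1 ETS match, beginning 105 bases before its start, present in 6.91% of all windows. A second listed start of Vdac1 held 3 GC boxes. Of the other members 3 had an entry. Letm1 held 3 GC boxes, Ppif 1 GC box and 1 ETS match, and Smdt1 3 GC boxes and 1 cyclic AMP response element, which 1.55% of windows hold. No ERR, NRF1, E-box or MEF2 pattern was found in the windows of these 6 genes, and these patterns occurred in 1.14%, 3.74%, 13.001% and 3.20% of all windows. These matches describe letters and are not binding sites.

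The pore gene Mcu (chr10:59446984-59616692, GENCODE M21, GRCm38) was higher in mdx/mTR. Its level ran from 38.9 to 45.4 CPM (median 44.4) in WT mice and 51.1 to 61.7 CPM (median 52.4) in mdx/mTR mice. Every mdx/mTR mouse lay above every WT mouse, and mdx/mTR replicate 5 stood apart at the top, the other 5 spanning only 51.1 to 53.96 CPM. The means were 43.4 ± 2.53 and 53.9 ± 3.98 CPM (SD, n = 6 each), a log2 fold change of 0.31 ± 0.06 (SE; edgeR adjusted p 5.07e-04). Without mdx/mTR replicate 5 the log2 fold change was 0.27 (edgeR adjusted p 5.05e-04). It ranged from 0.30 to 0.55 over the 6 scalings.

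Micu2 (chr14:57916261-57999262), a regulator at the mouth of the pore, had the largest rise of the 9. WT libraries ran from 38.8 to 43.6 CPM (median 39.7) and mdx/mTR libraries from 52.5 to 64.1 CPM (median 56.6). The groups were clearly apart, and the lowest mdx/mTR mouse was well above the highest WT mouse. Means were 40.5 ± 1.92 and 57.8 ± 4.17 CPM (SD, n = 6 each), a log2 fold change of 0.51 ± 0.05 (SE; edgeR adjusted p 7.54e-06), or 1.43-fold with a 95% interval of 1.32 to 1.54. Over the 6 scalings it was 0.51 to 0.74.

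Micu3 (chr8:40307458-40386308), a relative described mostly in nerve and muscle, moved the other way. It ran from 24.3 to 26.1 CPM (median 25.3) in WT mice and 16.8 to 22.3 CPM (median 20.8) in mdx/mTR mice. The WT mice were tightly grouped and all 6 mdx/mTR mice lay below them. Means were 25.2 ± 0.615 and 20.3 ± 2.09 CPM (SD, n = 6 each), with a log2 fold change of -0.32 ± 0.06 (SE; edgeR adjusted p 0.00133). Scaling on library totals alone gave -0.16 (edgeR adjusted p 0.0150), and it was -0.09 when scaled on mitochondrial reference genes (edgeR adjusted p 0.252).

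Smdt1 (chr15:82338959-82349091) was level between the groups under TMM. It spanned 61.1 to 68.7 CPM in WT (median 66.1) and 63.5 to 69.5 CPM in mdx/mTR (median 67.3). The ranges overlapped almost entirely, only 1 mdx/mTR mouse exceeding the highest WT mouse. The log2 fold change was 0.03 ± 0.04 (SE; edgeR adjusted p 0.639), with a 95% interval of -0.06 to 0.11. Library totals alone gave 0.18 (edgeR adjusted p 0.00163), fast fibre genes 0.19 (edgeR adjusted p 0.0331) and mitochondrial genes 0.26 (edgeR adjusted p 8.0e-04). Exons of Pheta2 on the same strand overlap 245 of its 1479 exonic bases.

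**Figure D1:**
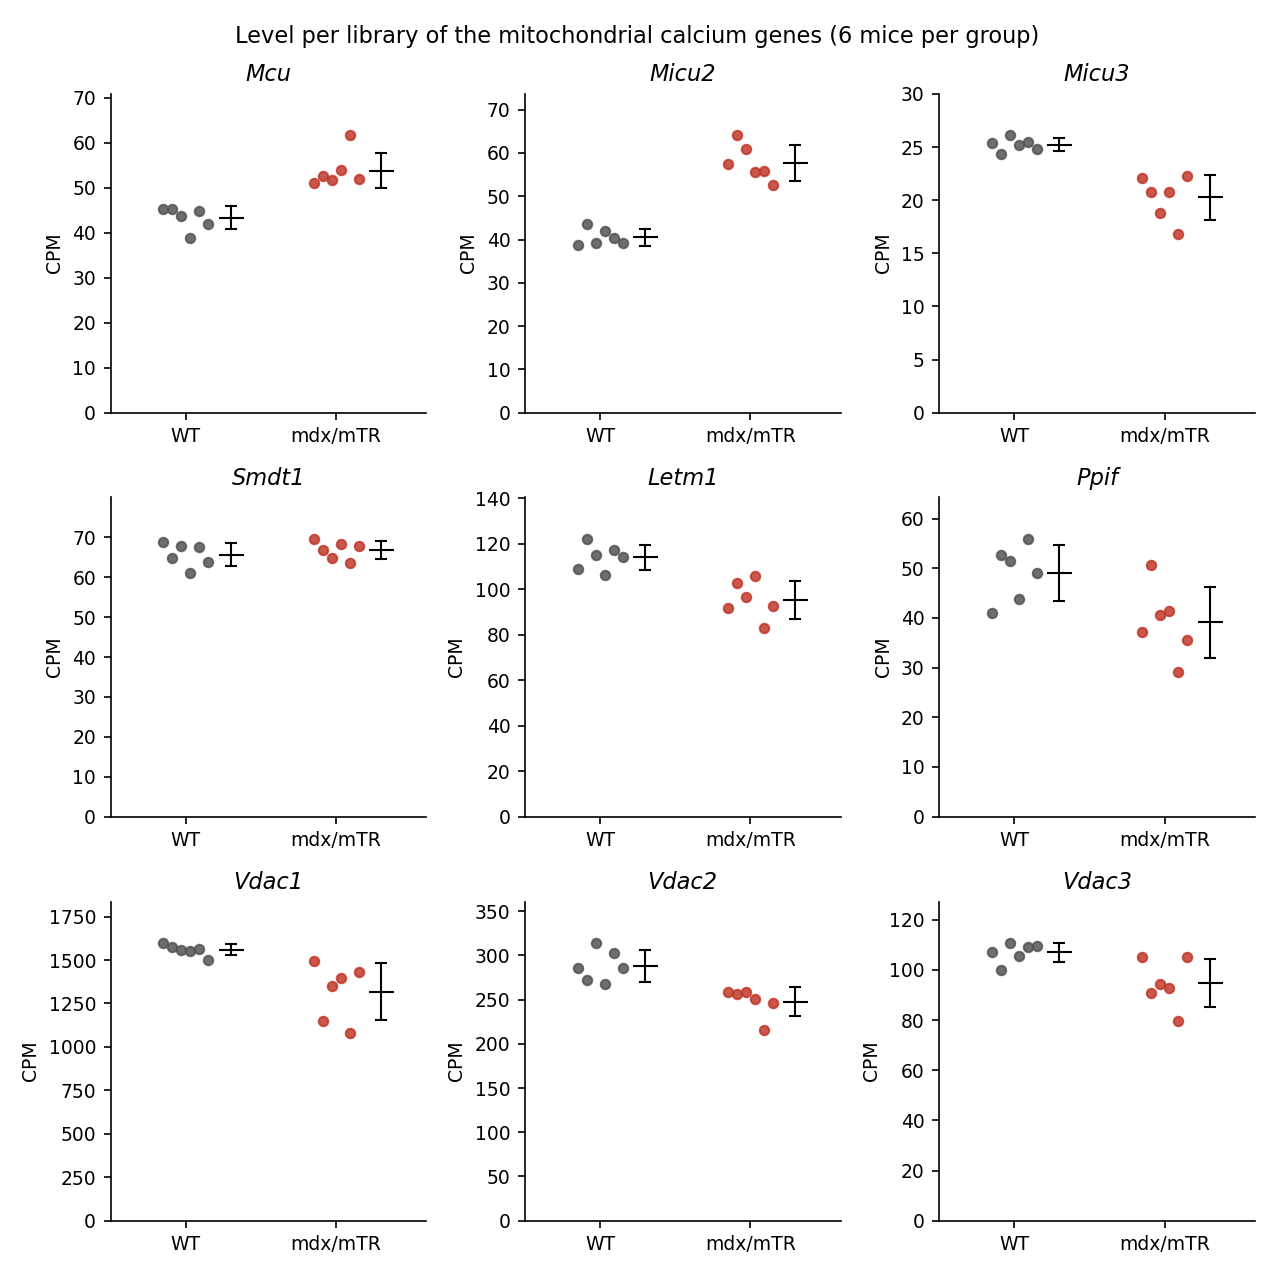
Level of each of the 9 genes in CPM (TMM-scaled) in every library, 6 WT (grey) and 6 mdx/mTR (red) mice, with the mean and SD beside the points; every axis starts at 0. Mcu and Micu2 lie higher in all 6 mdx/mTR mice, Micu3, Letm1, Vdac1 and Vdac2 lower in all 6, and Smdt1, Vdac3 and Ppif overlap between groups.

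Letm1 (chr5:33739673-33782817) ran from 106.4 to 122.1 CPM (median 115) in WT mice and 82.8 to 106.03 CPM (median 94.7) in mdx/mTR mice. In TMM-scaled CPM the groups touched but did not overlap, with mdx/mTR replicate 5 lowest, while per library total they overlapped. Its log2 fold change was -0.26 ± 0.06 (SE; edgeR adjusted p 0.00291), and -0.10 with library totals alone (edgeR adjusted p 0.175).

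Ppif (chr14:25694154-25700468), the cyclophilin of the permeability pore, had the largest standard error of the 9. WT libraries ran from 40.95 to 55.8 CPM (median 50.3) and mdx/mTR libraries from 29.1 to 50.6 CPM (median 38.9). The groups overlapped: in TMM-scaled CPM 4 mdx/mTR mice were below all WT mice, while mdx/mTR replicate 2 was above the WT median. Means were 48.96 ± 5.62 and 39.1 ± 7.15 CPM (SD, n = 6 each), a log2 fold change of -0.32 ± 0.11 (SE; edgeR adjusted p 0.0283). The call was lost in 5 of the 12 fits that left out 1 mouse: without WT replicate 2 (edgeR adjusted p 0.0524), WT replicate 3 (0.0544), WT replicate 5 (0.0659), mdx/mTR replicate 1 (0.0501) or mdx/mTR replicate 6 (0.0601). The antisense gene Ppifos overlaps 921 of its 5044 exonic bases, and whether counting used strand is not given in the sources used here.

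The 3 outer membrane channel genes fell under TMM, while none passed with library totals alone or on either reference list, where Vdac2 and Vdac3 changed sign on mitochondrial genes. Vdac1 (chr11:52360860-52389397), the major isoform of this muscle, ran from 1503 to 1597 CPM (median 1560) in WT mice and 1081 to 1497 CPM (median 1375) in mdx/mTR mice. In TMM-scaled CPM all mdx/mTR mice were below all WT mice, while per library total the groups overlapped. Replicates 2 and 5 of mdx/mTR were far below the rest of their group. The means were 1559 ± 31.6 and 1318 ± 166 CPM (SD, n = 6 each), a log2 fold change of -0.24 ± 0.08 (SE; edgeR adjusted p 0.0206).

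Vdac2 (chr14:21825238-21845879), which also binds the cell death protein BAK, ran from 268 to 314 CPM (median 286) in WT mice and 216 to 259 CPM (median 253) in mdx/mTR mice. In TMM-scaled CPM the groups did not overlap, 5 of the mdx/mTR mice lay within 246.7 to 258.8 CPM and replicate 5 was lowest. Per library total the groups overlapped. Its log2 fold change was -0.22 ± 0.06 (SE; edgeR adjusted p 0.00665). For Vdac3 (chr8:22577075-22593813) the range was 99.8 to 111 CPM in WT (median 108) and 79.7 to 105.04 CPM in mdx/mTR (median 93.5). Here, in TMM-scaled CPM, 4 of 6 mdx/mTR mice were below all WT mice and 2 were inside the WT range. Its log2 fold change was -0.18 ± 0.06 (SE; edgeR adjusted p 0.0310), a call lost in 6 of the 12 fits without 1 mouse (without WT replicate 3, 5 or 6, or mdx/mTR replicate 2, 3 or 4; edgeR adjusted p 0.0510 to 0.0616). Of the 50-base stretches of the Vdac3 transcript 47.5% also occur in another gene's transcripts, mainly those of Vdac3-ps1, and 10.3% for Vdac2, so the Vdac3 level in particular is uncertain.

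The channel genes depended on how libraries were put on a common scale. With library totals alone the log2 fold changes were -0.09 for Vdac1, -0.06 for Vdac2 and -0.03 for Vdac3, none of which passed. Scaled on mitochondrial reference genes they were -0.01, 0.01 and 0.05, so the sign of Vdac2 and Vdac3 turned. That list holds 21 tested genes of the import machinery, citric acid cycle and respiratory chain, of which 15 fell and none rose under TMM, with a median log2 fold change of -0.21, where 23.4% of all genes fell. With library totals alone 4 of the 21 were lower and 1 higher (11.2% and 40.2% of all genes, median -0.05). On fast fibre genes 2 were lower and none higher (8.88% and 32.7% of all genes, median -0.05). Under TMM the log2 fold changes of the channel genes and Letm1, -0.18 to -0.26, lay near the median of that list, whereas those of Mcu and Micu2 had the opposite sign.

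**Figure D2:**
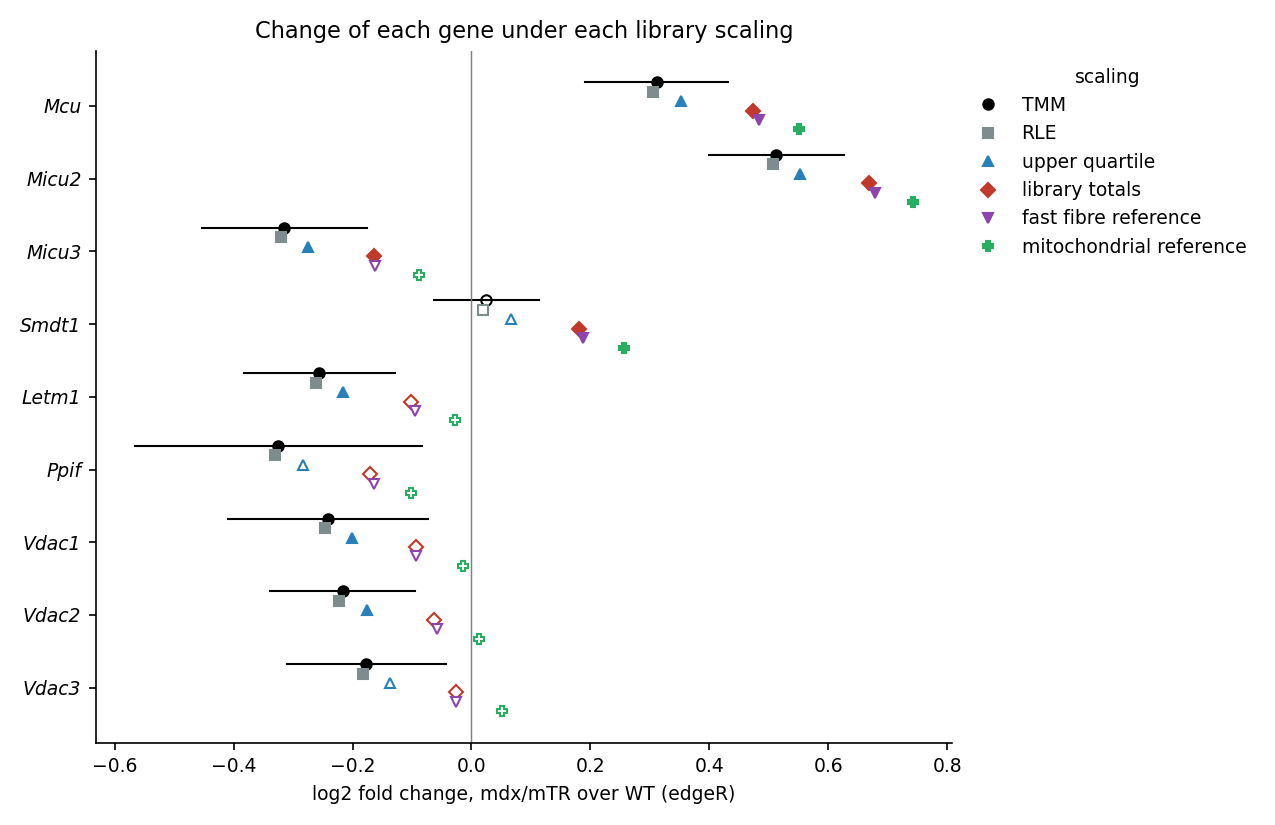
Log2 ratio of the fitted mdx/mTR level to that of WT (x axis) for the 9 genes under 6 scalings of library size; the line is the 95% interval under TMM, filled symbols have an edgeR adjusted p below 0.05 and open symbols do not. Mcu and Micu2 stay on the right at every scaling, from 0.30 to 0.74, while Vdac2 and Vdac3 cross 0 when scaled on mitochondrial genes.

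Ratios within a library do not depend on that scale. The count of Micu3 per count of Mcu, as a log2 ratio, spanned -0.90 to -0.63 among WT mice and -1.88 to -1.21 among mdx/mTR mice. No mdx/mTR mouse reached the WT range. The mean difference was -0.63 (means ± SD of 6 mice: WT -0.78 ± 0.09, mdx/mTR -1.41 ± 0.25). The ratio was 0.645 times that of WT, and a two-sided exact permutation test gave p 0.00216, or 0.00758 adjusted over 7 ratios and shares. Every mdx/mTR mouse was above all WT mice for Mcu and below them for Micu3. This ratio therefore had to lie apart, and its test adds no support beyond the 2 genes themselves. The exact p is the smallest this design allows. Smdt1 per Mcu spanned 0.51 to 0.65 among WT mice and 0.04 to 0.45 among mdx/mTR mice, again without overlap. Its mean difference was -0.28 (means ± SD 0.60 ± 0.05 and 0.31 ± 0.14; p 0.00216 and adjusted p 0.00758, exact permutation test), or 0.821 times WT. Both differences kept an adjusted p of 0.0152 (exact permutation test) in all 12 calculations without 1 mouse. Groups that do not overlap stay apart whichever mouse is left out, so this was no further test. Taken by replicate number, as if same-numbered mice were pairs, both missed the threshold (exact sign-flip p 0.0313, adjusted p 0.109), where 0.0313 is the smallest possible.

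Micu2 per Mcu spanned -0.23 to 0.11 among WT mice and -0.15 to 0.28 among mdx/mTR mice, with overlap. The mean difference was 0.20 (exact permutation p 0.0368, adjusted p 0.0859) and did not pass. It passed without WT replicate 4 (0.24, exact permutation adjusted p 0.0303) or without mdx/mTR replicate 5 (0.25, exact permutation adjusted p 0.0303).

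The proportions within the Vdac genes overlapped between the groups. Vdac1 took 79.8% ± 0.944 of all Vdac counts among WT mice and 79.3% ± 1.43 among mdx/mTR mice (mean ± SD of 6; p 0.483 and adjusted p 0.563, exact permutation test). Vdac2 made up 14.7% ± 0.791 and 15.02% ± 1.27 (exact permutation p 0.684), and Vdac3 5.48% ± 0.217 and 5.71% ± 0.267 (exact permutation p 0.126, adjusted p 0.220). None of the 3 shares passed, the differences in mean share being -0.511, 0.279 and 0.232 percentage points.

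**Figure D3:**
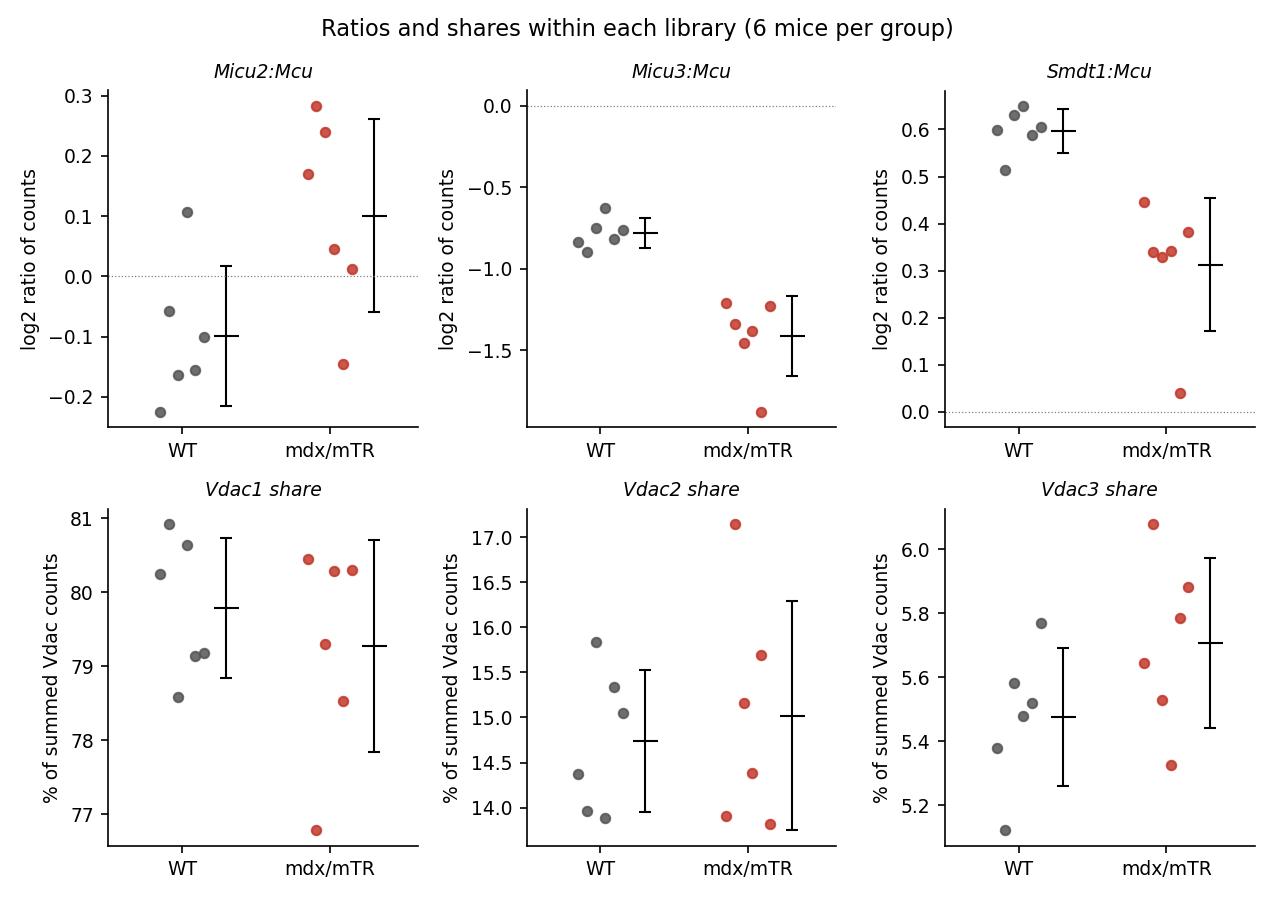
Log2 ratio of counts to Mcu for 3 genes and share of summed Vdac counts for the 3 channels (y axes, not starting at 0) in 6 WT (grey) and 6 mdx/mTR (red) libraries, with mean and SD. The groups are apart for Micu3:Mcu and Smdt1:Mcu and overlap in the other 4 plots.

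Levels of different genes were compared per kilobase of the longest coding transcript (GENCODE M21). In WT the order among the members was Vdac1 (771 ± 15.6 CPM per kilobase, SD, n = 6), Vdac2 (147 ± 9.08), Smdt1 (93.1 ± 4.10), Vdac3 (75.2 ± 2.76), Ppif (31.6 ± 3.63), Letm1 (21.6 ± 1.07), Micu2 (17.4 ± 0.825), Mcu (15.1 ± 0.882) and Micu3 (10.1 ± 0.247). No neighbours in that order overlapped between libraries. That spread does not cover the choice of length: counts of a gene were divided by 1 transcript, for Ppif 1549 of 5044 exonic bases. The place of Vdac3 is uncertain too, because 47.5% of its 50-base stretches occur in other genes. In mdx/mTR Micu2 stood at 24.8 ± 1.79 CPM per kilobase, above Letm1 at 18.1 ± 1.58, a reversal of their WT order, and Mcu, at 18.8 ± 1.39, overlapped Letm1.

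**Figure D4:**
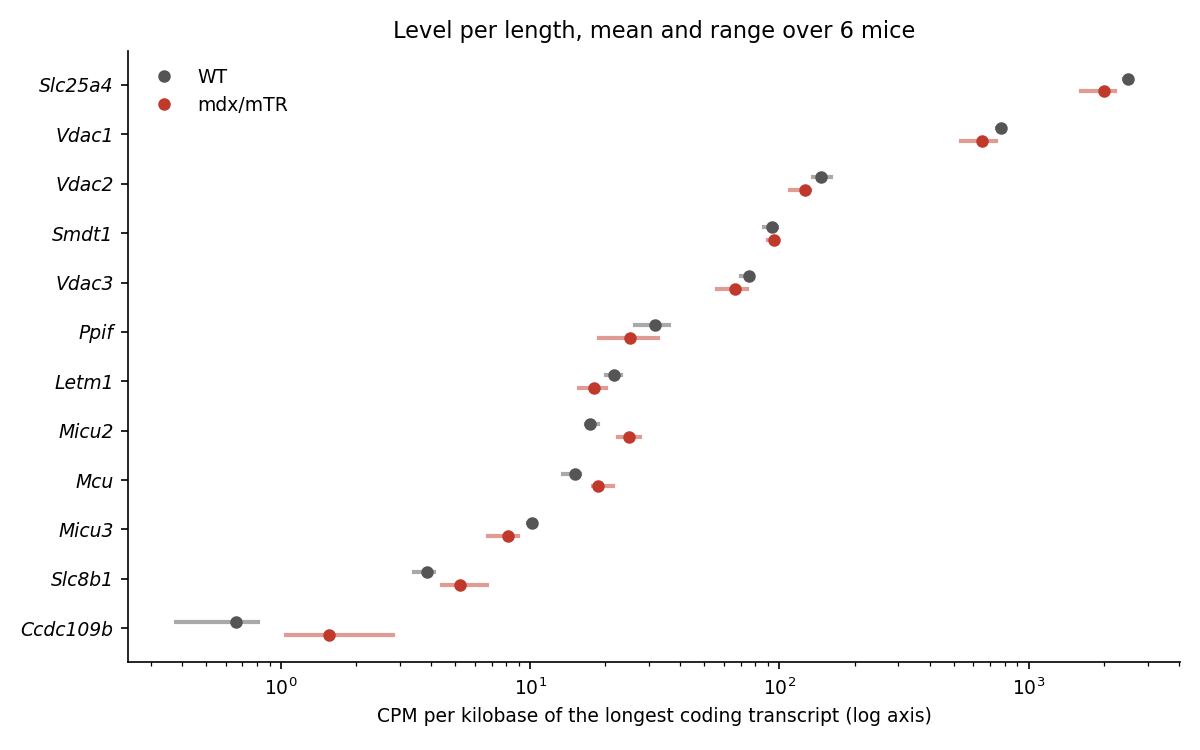
Mean level per kilobase of transcript (dot, log axis) and range over the 6 mice of each group (line) for the 9 genes and 3 related ones. Slc25a4 and Vdac1 are highest, Mcu lies between Micu3 and Smdt1, and Ccdc109b is lowest in both groups.

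Ccdc109b, the table's symbol for the gene of the pore subunit MCUb, known to lower uniporter current, ran from 0.50 to 1.07 CPM in WT and from 1.38 to 3.71 CPM in mdx/mTR. All mdx/mTR mice were above all WT mice, at levels far below those of Mcu. Its log2 fold change was 1.23 ± 0.26 (SE; edgeR adjusted p 0.00155), and 0.97 without mdx/mTR replicate 5. Of the 6 tested uniporter partners 2 rose and 2 fell, where 25.0% of all genes rose and 23.4% fell, with a median log2 fold change of 0.00 against 0.01 over all genes; the 2 that fell, Mcur1 and Afg3l2, did not pass with library totals alone.

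On the export side, Slc8b1, the gene of the sodium-calcium exchanger NCLX that returns calcium to the cytosol, was higher. It ran from 9.88 to 11.9 CPM (median 11.2) in WT mice and 12.8 to 19.4 CPM (median 15.1) in mdx/mTR mice, without overlap. The log2 fold change was 0.44 ± 0.09 (SE; edgeR adjusted p 0.00163), and 0.36 without mdx/mTR replicate 5, the highest library. Of the 4 tested genes listed under calcium efflux and proton exchange 2 rose (Slc8b1 and Letmd1, 0.27 ± 0.07 SE, edgeR adjusted p 0.00617) and none fell. The listing does not show that each of them, Letmd1 among them, has that role. Of all genes 25.0% rose and 23.4% fell, and 4 genes are too few to set against these shares. Macrophage and fibroblast markers were higher in the same libraries as Slc8b1 and Ccdc109b, and their part was not tested.

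Candidates and modulators of the permeability pore outside the members were called at shares near those of all genes (25.0% higher and 23.4% lower). Of 17 tested 4 rose and 5 fell under TMM, with a median log2 fold change of -0.05. With library totals alone 5 were higher and 2 lower (40.2% and 11.2% of all genes, median 0.10). On mitochondrial reference genes 7 were higher and 1 lower (49.0% and 6.95% of all genes, median 0.18). Slc25a4, the muscle adenine nucleotide carrier long linked to the pore, ran from 4620 to 4993 CPM in WT and from 3106 to 4272 CPM in mdx/mTR. The groups did not overlap in TMM-scaled CPM but did per library total, and mdx/mTR replicate 5 was lowest. Its log2 fold change was -0.31 ± 0.08 (SE; edgeR adjusted p 0.00433), and -0.09 on mitochondrial reference genes (edgeR adjusted p 0.172). Tspo, an outer membrane protein abundant in macrophages, rose from 10.3 ± 0.753 to 29.02 ± 5.56 CPM (SD, n = 6 each; adjusted p 4.69e-07 by edgeR). Bak1, a pore-forming cell death gene, rose by a log2 fold change of 0.49 ± 0.07 (SE; edgeR adjusted p 6.99e-05). Of the 12 other cyclophilins tested 3 rose and 2 fell under TMM (25.0% and 23.4% of all genes). With library totals alone 6 were higher and 1 lower (40.2% and 11.2% of all genes). Those that rose included Ppic at 0.67 ± 0.12 (SE; edgeR adjusted p 4.52e-04) and Ppib at 0.57 ± 0.11 (SE; edgeR adjusted p 9.79e-04), which act in the secretory pathway.

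Among genes that bring the reticulum to the mitochondrion, under TMM 6 of 12 fell and 2 rose (23.4% and 25.0% of all genes), with a median log2 fold change of -0.13. With library totals alone 2 of 12 were lower and 5 higher (11.2% and 40.2% of all genes), with a median of 0.03. Hspa9, the chaperone that couples the reticulum's calcium channel to Vdac1, fell from 676 ± 26.1 to 507 ± 35.99 CPM, a log2 change of -0.41 ± 0.06 (SE; adjusted p 5.92e-05 by edgeR), and passed under all 6 scalings. Itpr1, a calcium release channel, fell by 0.43 on the log2 scale (SE 0.07; edgeR adjusted p 3.82e-04), a call lost on mitochondrial reference genes (-0.20, edgeR adjusted p 0.0720). Among listed mitochondrial enzymes and carriers linked to calcium, 7 of 12 fell and 1 rose under TMM (23.4% and 25.0% of all genes), with a median of -0.24. The number lower was 4 with library totals alone or on fast fibre genes (11.2% and 8.88% of all genes). It was 2 on mitochondrial reference genes (6.95% of all genes, median -0.01). Pdpr, a regulator of pyruvate dehydrogenase phosphatase, fell by 0.55 (SE 0.06; edgeR adjusted p 1.24e-05), and Slc25a24, a calcium-dependent carrier, rose by 1.37 ± 0.23 (SE; edgeR adjusted p 3.16e-04), or 1.09 without mdx/mTR replicate 5.

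**Figure D5:**
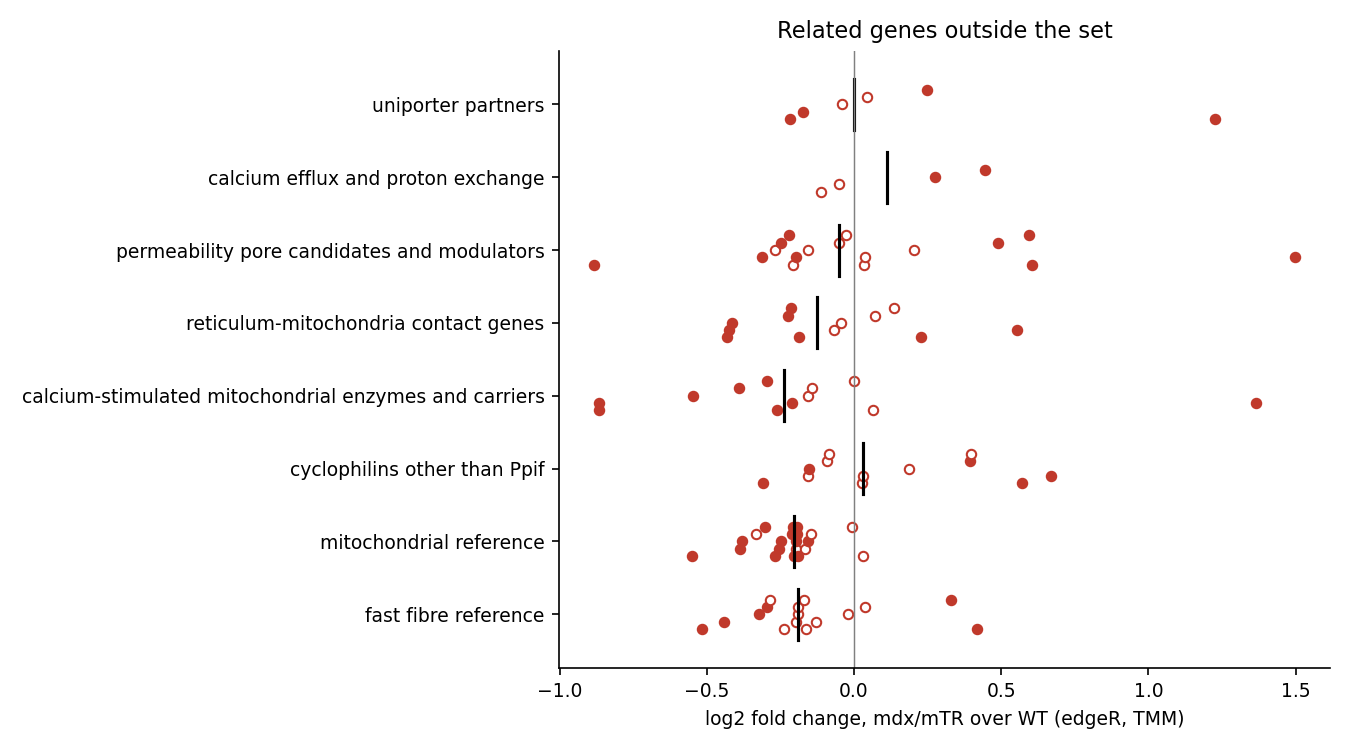
Log2 ratio of the fitted mdx/mTR level to that of WT (x axis) for genes of 8 related lists; each point is a gene, filled where the edgeR adjusted p is below 0.05, and the black bar is the median of the list. The median of the mitochondrial reference list is -0.21, and the largest rise is that of Tspo.

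In the reference lists the smallest p-values were those of Hspd1 (-0.55 ± 0.05 SE; edgeR adjusted p 1.30e-06) and Chchd3 (-0.38 ± 0.06 SE; edgeR adjusted p 2.17e-04) for mitochondria, and of Ryr1 (-0.52 ± 0.10 SE; edgeR adjusted p 0.00109) and Mylpf (0.42 ± 0.10 SE; edgeR adjusted p 0.00322) for fast fibres. Hspd1, Hspe1 and Timm23 of the mitochondrial list have 36.1% to 90.9% of their 50-base stretches in common with pseudogenes or other loci, which leaves their levels uncertain. Of the 16 fast fibre genes 2 rose and 4 fell under TMM (25.0% and 23.4% of all genes), with a median of -0.19. With library totals alone 3 were higher and 3 lower (40.2% and 11.2% of all genes).

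In TMM-scaled CPM the library of mdx/mTR replicate 5 carried the extreme value of its group in 8 of the 9 members. It was highest for Mcu and lowest for Micu3, Smdt1, Letm1, Vdac1, Vdac2, Vdac3 and Ppif. Its TMM factor, 1.16, was the highest of all libraries, which lowers its CPM. Per library total it was instead highest for Smdt1 and not lowest for Letm1, Vdac1 or Vdac2. The same library had the highest summed macrophage level (827 CPM against at most 571 CPM in the other 5), the highest satellite cell and myoblast level (523 against at most 267 CPM) and the lowest fast myofibre level (114015 CPM). The part of these markers in the member values was not tested. Without this library the same numbers of members passed, 2 higher and 6 lower, with log2 fold changes of 0.52 for Micu2, -0.27 for Micu3, -0.22 for Letm1, -0.19 for Vdac1, -0.18 for Vdac2, -0.13 for Vdac3 and -0.26 for Ppif.

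Likeness of pattern was measured as the mean absolute difference, over the 12 libraries, between log2(CPM + 0.5) profiles centred on their own means, among 9508 other genes with a mean of at least 5 CPM. For Micu2 the nearest were Eid1 (0.048), Ap1s1 (0.055) and Ttll12 (0.065). For Mcu they were Cdkn2d (0.044), Zcchc8 (0.049) and Dvl2 (0.049). For Micu3 they were Lrrc39 (0.031), D5Ertd579e (0.039) and Stradb (0.040). All 9 had an edgeR adjusted p below 0.05 in the direction of the gene they resembled. The profiles hold the difference between groups, so the shared direction follows from how these genes were chosen.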

How the data were processed

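The authors deposited whole-number counts per gene symbol with 1 column per mouse, all 12 matched to a sample by title. A further deposited table gives the authors' comparison of the groups. Its columns are a mean normalized signal, log2 fold changes and their errors, a score for the test, and raw and adjusted p-values, per the file headers. FastQC, STAR, DESeq2 and mm10 are named, without versions or roles, per the submitters' processing notes; the counter, annotation and strand handling are not given in the sources used here.

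Counts were tested with edgeR 4.0.16 in R 4.3.3: filterByExpr, TMM scaling, glmQLFit and glmQLFTest with group as the only term, Benjamini-Hochberg adjustment over 13937 genes, threshold 0.05. SEs were derived from the F statistic and the fold change. For ratios and shares, exact permutation tests (two-sided, scipy 1.17.1) were used. The members and the 8 related and 8 marker lists were chosen with earlier results of these data known. Named genes were the members, Dmd, Ccdc109b, Slc8b1, Slc25a4, the 2 smallest p-values of each related list, and the 3 most alike genes of the 3 members with the smallest p; any other gene was chosen after its values were seen. Some results are not reported here, among them 1 of the 7 ratios and shares that were adjusted together.

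Alternatives were 2 filters, 5 scalings (2 of them on reference lists), DESeq2 1.42.0, limma-voom (limma 3.58.1), a replicate block and each mouse left out. Counts were simulated for 13937 genes, of which 67 changed 1.25-fold, 67 changed 1.5-fold and 66 changed 2-fold. There edgeR recovered 34.3%, 70.1% and 89.4% of these, with 3 false calls. In the data 48.3% of genes were called, which makes the adjusted threshold less strict, so these rates do not carry over to the members. Total counts were 35136327 to 60330410 per library, and a floor of 3 counts was 0.0460 to 0.0837 CPM; this covers counting error only. Replicate pairs differed by more than sampling noise (chi-square per degree of freedom 9.32 to 128).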

Additional observations from a re-analysis of the deposited data

Results flagged for a closer look

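Libraries far from the rest of their group of 6 were sought by Dixon's ratio, the gap to the nearest library over the whole spread, at its 95% critical value. Chance alone passes this for about 1 group in 20; of 68 groups tested 8 passed, where chance gives 3.4, and genes of 1 library are not independent. Of the 8, 7 concerned mdx/mTR replicate 5. It was highest for Mcu (61.7 CPM against 51.1 to 53.96 CPM in the others, ratio 0.731) and for Ccdc109b (3.71 CPM against 1.38 to 2.08 CPM, ratio 0.699). It was also highest for Slc25a24 (28.7 CPM against 10.02 to 16.7 CPM, ratio 0.642). The lowest values were those for Vdac2 (216 CPM against 246.7 to 258.8 CPM, ratio 0.716) and for Slc25a4 (3106 CPM against 3904 to 4272 CPM, ratio 0.685). Both rest on TMM, and per library total mdx/mTR replicate 5 was not the lowest of its group for Vdac2. Its log2 ratios were lowest for Micu3:Mcu (-1.88 against -1.46 to -1.21, ratio 0.630) and Smdt1:Mcu (0.0398 against 0.33 to 0.45, ratio 0.712). WT replicate 2 was lowest for Ryr1 (7009 CPM against 7910 to 8403 CPM, ratio 0.646).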

How the results depend on the processing

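Mcu and Micu2 kept their direction and an adjusted p below 0.05 under all 10 other settings (0.30 to 0.55 and 0.50 to 0.74) and in all 12 fits without 1 mouse (0.27 to 0.33 and 0.48 to 0.54). The number of members lower in mdx/mTR, 6 by TMM, was 1 with library totals alone, 0 on mitochondrial and 0 on fast fibre reference genes, and 4 to 6 without 1 mouse. These scalings moved the log2 fold change of the median gene up by 0.16, 0.23 and 0.16, and so lessened falls and enlarged rises. They moved the share of genes called higher and lower, 25.0% and 23.4% by TMM, to 40.2% and 11.2%, 49.0% and 6.95%, and 32.7% and 8.88%. With library totals alone the log2 fold changes were 0.18 for Smdt1, -0.10 for Letm1, -0.0929 for Vdac1, -0.0625 for Vdac2, -0.0263 for Vdac3 and -0.17 for Ppif. On mitochondrial genes they were -0.0885 for Micu3, 0.26 for Smdt1, -0.0284 for Letm1, -0.0146 for Vdac1, 0.0119 for Vdac2, 0.0512 for Vdac3 and -0.10 for Ppif. On fast fibre genes they were -0.16 for Micu3, 0.19 for Smdt1, -0.10 for Letm1, -0.0934 for Vdac1, -0.0577 for Vdac2, -0.0255 for Vdac3 and -0.16 for Ppif. With upper quartile scaling Vdac3 (-0.14, edgeR adjusted p 0.0776) and Ppif (-0.28, adjusted p 0.0539) did not pass. The cause of these differences between scalings was not tested.

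Without 1 mouse, log2 fold changes ran from -0.34 to -0.27 for Micu3, 0.00 to 0.04 for Smdt1, -0.29 to -0.22 for Letm1, -0.28 to -0.19 for Vdac1, -0.24 to -0.18 for Vdac2, -0.21 to -0.13 for Vdac3 and -0.41 to -0.26 for Ppif. The log2 ratio differences ran from 0.16 to 0.25 for Micu2:Mcu, -0.67 to -0.54 for Micu3:Mcu and -0.31 to -0.23 for Smdt1:Mcu. The difference in Vdac2 share ran from -0.146 to 0.519 percentage points, negative only without mdx/mTR replicate 2. The number of genes called over the whole table was 5794 to 7797 over the other settings and 6125 to 6816 without 1 mouse.

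The groups share replicate numbers, but same-numbered libraries had correlations of deviations from -0.155 to 0.354, with 2 of 6 above 0.1, and 4 of 12 libraries correlated best with their own number, so replicate numbers were not taken as pairs. With the replicate block in edgeR 2 members were higher and 6 lower, with log2 fold changes of 0.31 for Mcu and 0.51 for Micu2, and no member call changed. In the sign-flip test by replicate number the differences in Micu3:Mcu (-0.63) and Smdt1:Mcu (-0.28) had an adjusted p of 0.109 by exact permutation of signs.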

Other observations

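Some other genes of the related lists moved more than the members did under TMM. They were chosen after their values were seen. Bcl2, which restrains outer membrane permeabilisation, fell from 6.43 ± 1.05 to 3.49 ± 0.741 CPM (SD, n = 6 each), a log2 change of -0.88 ± 0.15 (SE; adjusted p 2.77e-04 by edgeR), opposite to Bak1, and the groups did not overlap. Pdp2, a pyruvate dehydrogenase phosphatase, fell from 7.77 ± 2.15 to 4.28 ± 0.839 CPM, or by 0.86 on the log2 scale (SE 0.17; adjusted p 0.00103 by edgeR). Hk1, a hexokinase that docks on Vdac1, rose from 13.3 ± 1.82 to 20.3 ± 5.66 CPM, a log2 change of 0.60 ± 0.15 (SE; adjusted p 0.00519 by edgeR). These 3 passed under all 6 scalings and in all 12 fits without 1 mouse. Close relatives in the same lists did not pass under TMM. Their log2 fold changes were 0.00 for Pdp1 (edgeR adjusted p 0.991), 0.04 for Bcl2l1 (0.864), 0.20 for Bax (0.102) and -0.27 for Hk2 (0.204).

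The adenine nucleotide carriers moved in opposite directions under TMM. Slc25a4, the muscle form, had 4799 ± 150.5 CPM (SD, n = 6) among WT mice and 3868 ± 395 CPM among mdx/mTR mice, a fall that did not pass on mitochondrial (-0.09) or fast fibre (-0.16) reference genes. Slc25a5, the form common in other tissues, had 12.8 ± 2.06 and 19.3 ± 5.38 CPM, a log2 change of 0.60 ± 0.16 (SE; adjusted p 0.00808 by edgeR). Since 46.6% of its 50-base stretches recur elsewhere, this level is uncertain. Macrophage and fibroblast markers rose in the same libraries, and their part in this was not tested.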
